A study of Rattus norvegicus with 35 samples.

Results

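The retinal response to crushing the optic nerve was compared with the response to cutting it, 12 h after the lesion, in adult female Sprague-Dawley rats. The comparison rests on 6 of the 35 arrays of the series, 3 from retinas after intraorbital nerve crush (IONC) and 3 from retinas after intraorbital nerve transection (IONT), chosen by lesion and time. The lesions were set against each other directly and not through naive retinas. For IONT the nerve was cut close to the eye through an opened dura, so that the retinal blood supply was spared. For IONC the nerve was pinched with forceps farther from the eye, for a few seconds, and animals whose retinal blood flow did not return were discarded. The kind of lesion and its distance from the eye therefore cannot be told apart. Each array held RNA pooled from 4 left retinas of different rats, and 5 arrays of retinas from rats with no surgery (naive) give the uninjured level. The labels name no transgene and no drug treatment for any group. A p-value here reflects how far pools differ, since no single animal was measured. In whole retina, fewer cells of a type and less RNA per cell cannot be told apart.

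The optic nerve is made of the axons of retinal ganglion cells, the only neurons that carry the retina's signal to the brain. Damage to the axon starts a stress response in the cell body long before the cell dies, and glia and microglia of the retina respond as well. A branch of that stress response, the integrated stress response, slows general protein synthesis while raising translation of the transcription factor ATF4. ATF4 and its partners of the C/EBP family switch on genes that import and make amino acids, charge transfer RNAs and, when the stress lasts, favour cell death. A second arm runs through cytokines that signal by the receptor subunit gp130 and by JAK and STAT proteins, and its feedback inhibitors are proteins of the SOCS family, to which CISH belongs.

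One of the 6 arrays, IONC replicate 2, stood apart from all others, and the differences at 12 h are therefore given with it and without it. Its median correlation with the other arrays was 0.871, against 0.962 to 0.992 for the other 34 arrays. Its values were compressed, with a standard deviation (SD) of 2.30 on the log2 scale against 2.89 to 3.03 elsewhere. For the 6984 probe sets with an IONT mean above 8, its median difference from the mean of IONC replicates 1 and 3 was -1.34, and for the 12523 probe sets with an IONT mean under 3 it was 0.46. The 3′ to 5′ difference of the actin control probe sets, a sign of RNA quality, was 1.93 on this array and 1.53 to 1.92 on the other 5. The naive arrays were mixed in this measure, with 1.75 to 1.90 in replicates 1 to 3 and 3.19 and 2.98 in replicates 4 and 5, whose part in the distances from naive was not tested. IONC replicates 1 and 3 correlated at 0.994 with each other. As a result, the median SD between arrays was 0.534 for IONC, 0.0814 for IONT and 0.152 for naive retinas.

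**Figure D1:**
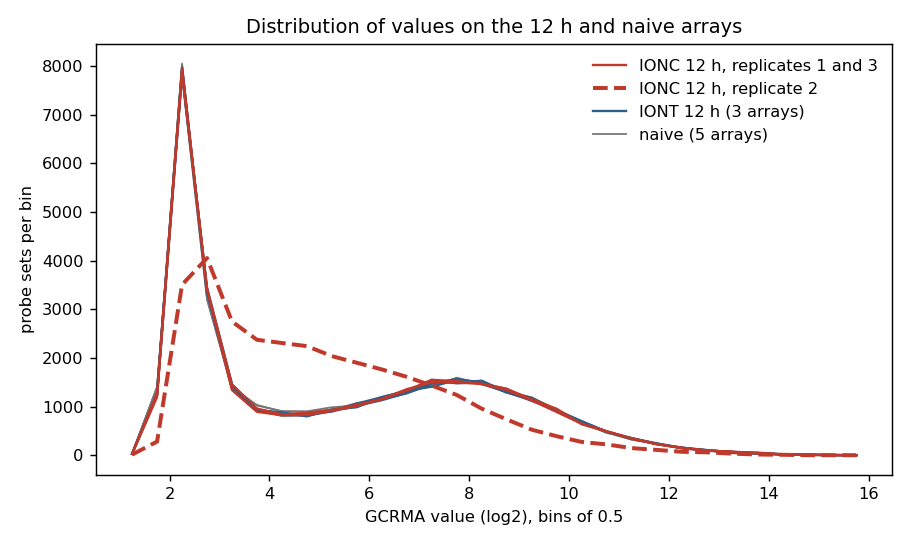
Number of probe sets (y axis) in each bin of deposited log2 values (x axis) for the 5 naive arrays, the 3 IONT and the 3 IONC arrays of 12 h. IONC replicate 2 is a dashed line. The dashed curve is narrower than the others, with its lower quartile at 2.99 against 2.38 to 2.39 and its upper quartile at 6.52 against 7.73 to 7.77 for the other 5 arrays of 12 h.

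Replicate 2 also differed in how it stood to naive retinas. Among the 243 probe sets that lay over 2 log2 units above naive in the mean of IONC replicates 1 and 3, the median excess was 2.85 and 2.57 in those arrays but 0.61 in replicate 2. Among the 98 probe sets that lay over 2 units below naive, the median was -2.27 and -2.33 in replicates 1 and 3 and -2.47 in replicate 2. On this array 51.9% of the higher set and 79.6% of the lower set lay outside the naive range. The same share over all probe sets was not taken, and the part of this array's compression in these values was not tested. These probe sets were chosen on replicates 1 and 3, so the values describe replicate 2 only.

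At 12 h more probe sets were called lower than higher after IONC, set against IONT, by a margin that depended on replicate 2. A probe set was called when its Benjamini-Hochberg adjusted limma p was under 0.01, its log odds of a difference (B) were above 0 and the difference was at least 1.2-fold. With all arrays, 290 of 31042 probe sets (0.934%) were called, 29 higher (0.0934%) and 261 lower (0.841%) after IONC. Without replicate 2, 180 were called (0.58%), 63 higher (0.203%) and 117 lower (0.377%). Both ways, 129 were called (0.416%), of which 19 were higher (0.0612%) and 110 lower (0.354%). A call both ways needs the call with replicate 2, so this split is not free of that array. Of the 51 called only without it, 43 were higher and 8 lower by the difference with all arrays. The 3 IONC arrays all lay on 1 side of the 3 IONT arrays for 14.6% of probe sets, above them for 5.99% and below them for 8.62%. The balance of higher and lower calls thus moved with replicate 2, from 90% lower with it to 65% without it, and to 60.2% with all arrays weighted by their quality.

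These calls depend on single arrays and on the spread taken from the other time points. Leaving out 1 IONT array gave 65 calls without IONT replicate 2, 86 without replicate 3 and 209 without replicate 1, and leaving out IONC replicate 1 or 3 gave 1349 or 1460. From the 6 arrays alone no probe set passed, with 1084 at an unadjusted limma p under 0.05 and a lowest adjusted p of 0.51. With the spread of all arrays, 36.9% of probe sets had an unadjusted p under 0.05, and 9.49% without IONC replicate 2.

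The 110 probe sets called lower both ways had a median difference of -1.36 between IONC and IONT, and of -1.0 without replicate 2. Their median difference from naive was -1.19 after IONC and 0.16 after IONT. In the separate IONC arrays the median distance from the IONT mean was -0.95, -1.93 and -1.05, largest in replicate 2. The 19 called higher both ways had a median difference of 0.70 (0.78 without replicate 2), with medians against naive of 0.72 after IONC and 0.05 after IONT.

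Genes of the integrated stress response and of amino acid supply were among those lower after IONC than after IONT. Over 4 lists with 60 measured genes, 21 were called lower and 0 higher, where 1.03% of all 14217 genes were called lower and 0.141% higher. The lists were chosen with earlier results of these data known, so their shares, here and below, are no independent test. Without replicate 2, 11 were called lower, beside 0.478% of all genes. In 34 of the 60 the 3 IONC arrays all lay below the 3 IONT arrays, beside 10.4% of all genes. The difference was negative for 52 of the 60 and, without replicate 2, for 45. Their median difference was -0.87 (-0.40 without replicate 2), where the median over all genes was -0.10 (0.00). Against naive, the medians of the effector, synthesis, transporter and synthetase lists were -1.14, -0.64, -0.72 and -0.77 after IONC. Without replicate 2 these medians were -0.58, -0.11, -0.22 and -0.39. After IONT the 4 lists stood near naive, with medians of 0.08, 0.01, -0.05 and 0.11. The count of 21 called lower fell to 12 without IONT replicate 1, to 3 without IONT replicate 2 and to 7 without IONT replicate 3.

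Among 16 effectors of the integrated stress response, 6 were called lower, 5 of them also without replicate 2. Atf4, the transcription factor at the head of this response, read 12.25, 11.67 and 12.03 (log2) in the IONC arrays and 12.85, 13.08 and 12.78 in the IONT arrays. All IONC arrays lay below all IONT arrays, by -0.92 ± 0.13 (SE, adjusted p = 0.000381), and by -0.77 (adjusted p = 0.00199) without replicate 2. Its naive mean was 13.07, nearer to the IONT arrays.

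Chac1, which degrades glutathione and is a late target of ATF4, read 6.54, 3.16 and 5.33 after IONC against 8.45, 9.02 and 8.56 after IONT. The difference was -3.67 ± 0.53 (adjusted p = 0.000382), or -2.74 (adjusted p = 0.00107) without replicate 2. The groups did not overlap, and the naive mean of 9.71 was higher than either lesion.

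Atf3, a stress-induced transcription factor of injured neurons, read 9.7, 5.06 and 7.88 after IONC and 10.79, 11.01 and 10.65 after IONT. It was lower after IONC by -3.27 ± 0.58 (adjusted p = 0.00212), and by -2.03 (adjusted p = 0.00147) without replicate 2. Its naive mean was 9.04, so that the IONT arrays stood above naive and the IONC arrays on both sides of it. IONT itself was not called against naive for Atf3 (1.78, adjusted p = 0.0706).

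Sesn2, a leucine sensor that restrains mTORC1, was lower by -2.51 (adjusted p = 0.0028), with 7.1, 3.86 and 6.55 after IONC against 8.2, 8.59 and 8.26. Cebpg, a dimer partner of ATF4, was lower by -1.54 (adjusted p = 0.00859). Both stayed called without replicate 2, at -1.52 and -0.80. Trib3, a pseudokinase that feeds back on ATF4, read 4.82, 2.05 and 4.87 against 6.46, 6.63 and 6.23. It was called with all arrays only, at -2.53 (adjusted p = 0.00584) against -1.59 (adjusted p = 0.0346) without replicate 2.

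In the list of serine, folate, asparagine and proline synthesis, 3 of 13 genes were called lower, beside 1.03% of all genes. Of these 3, 1 was also called without replicate 2. Mthfd2, the mitochondrial folate enzyme that makes one-carbon units, read 5.16, 2.55 and 4.38 after IONC against 7.72, 8.35 and 8.24 after IONT. Its difference of -4.07 ± 0.56 (adjusted p = 0.000212) became -3.34 (adjusted p = 0.00147) without replicate 2, and all IONC arrays were below all IONT arrays. Asns, asparagine synthetase, differed by -1.9 (adjusted p = 0.0042) and Aldh18a1, an enzyme of proline synthesis, by -1.29 (adjusted p = 0.00825), and neither was called without replicate 2 (-1.58 and -1.05). The median of this list was -0.32 either way, and 9 of its 13 differences were negative.

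Of 13 amino acid transporters, 4 were called lower, beside 1.03% of all genes, and Slc1a4 and Slc38a2 were called both ways. Slc1a4, a carrier of neutral amino acids such as serine, read 6.95, 7.12 and 6.62 after IONC against 7.97, 8.6 and 8.27 after IONT. Replicate 2 was here the highest of the IONC arrays, and the difference was -1.38 with it and -1.49 without it (adjusted p = 0.00115 and 0.00199). Slc38a2, a sodium-coupled carrier, was lower by -1.4 with all arrays and -0.89 without replicate 2. Slc7a1, the cationic amino acid carrier, read 7.21, 2.58 and 6.92 against 8.65, 9.17 and 8.87, and its call at -3.33 (adjusted p = 0.00951) was lost without replicate 2 (-1.83, adjusted p = 0.0266). Slc7a5, which imports leucine, was likewise called only with all arrays (-1.6, and -1.12 without replicate 2).

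The aminoacyl-tRNA synthetases, which load amino acids onto transfer RNAs, had 8 of 18 members called lower, beside 1.03% of all genes, and all 18 differences were negative. In 12 of the 18 the IONC arrays all lay below the IONT arrays, beside 10.4% of all genes. Tars1, for threonine, read 9.19, 7.27 and 8.76 against 10.04, 10.53 and 10.14, a difference of -1.83 ± 0.3 (adjusted p = 0.00115) that was -1.26 without replicate 2. Aars1, for alanine, read 12.08, 11.3 and 11.93 against 12.79, 12.95 and 12.68. Its difference was -1.03, and -0.80 without replicate 2. Tars1, Aars1 and Sars1 (-1.07, and -0.67 without replicate 2), for serine, were the 3 called both ways, and Mars1, Lars1, Iars1, Yars1 and Nars1 were called with all arrays only, at -1.62 to -0.95 (-1.22 to -0.58 without replicate 2). Cars1 (-1.61, and -1.13 without replicate 2) and Eprs1 (-1.59 and -1.11) were called with all arrays only, through a probe set other than the brightest one. A further Eprs1 probe set, also not the brightest, was called both ways (-1.25, and -0.91 without replicate 2). Cars1 and Eprs1 are not in this count.

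**Figure D2:**
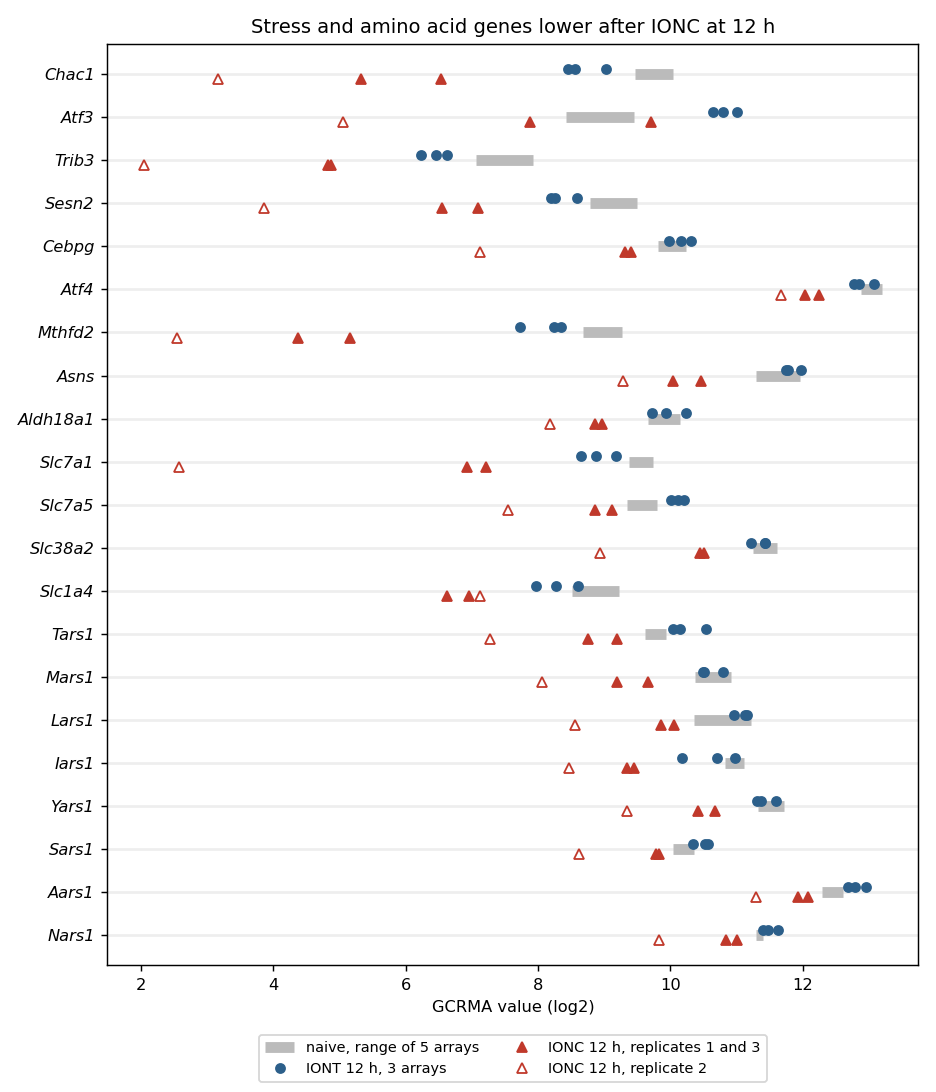
Deposited log2 values (x axis) of the 21 genes of the stress and amino acid lists called lower after IONC with all arrays, 1 row a gene. Each IONC and IONT array is a point, with IONC replicate 2 marked apart, and a bar spans the range of the naive arrays. In Slc1a4 replicate 2 sits among the other IONC arrays (7.12), while in Slc7a1 it lies far to the left of them (2.58).

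Protein-folding genes of the endoplasmic reticulum, which a separate branch of the stress response controls, gave other values. Of 17 chaperones and related genes, 1 was called, beside 1.03% of all genes called lower. It was Herpud1, a membrane protein of the degradation pathway, at -1.11 (-0.68 without replicate 2, called both ways). The list's median was 0.21, and 0.51 without replicate 2. With all arrays 6 of the 17 differences were negative, and 2 had an unadjusted limma p under 0.05 (5261 of all 14217 genes). Without replicate 2, 2 of the 17 were negative and 13 had such a p (1795 of all 14217 genes). Hspa5, the chaperone BiP, read 13.08, 11.89 and 13.04 after IONC against 12.59, 11.95 and 12.12 after IONT (0.45, adjusted p = 0.163, and 0.84, adjusted p = 0.0367, without replicate 2). Of the heat shock proteins 1 of 13 was called lower, Hspa4l, with all arrays only (-0.91, and -0.57 without replicate 2).

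The promoters of the stress and amino acid genes are shown because ATF4 and C/EBP proteins bind as a pair to a composite element, the C/EBP-ATF response element. In the RefSeq promoter table (assembly GRCr8), which gives 250 bases before to 50 bases after each gene start, the letters TGATGNAA were searched on both strands. They occurred in 3.82% of all 27457 promoters and in 2.21% of the 11733 promoters of genes on the arrays. Of 52 promoters of the 4 lists 26.9% held them. By the brightest probe set, the share was 10 of 19 (52.6%) for genes called lower and 4 of 33 (12.1%) for those not called. Among these 4 is Cars1, which was called lower through another probe set. Among all genes called lower with all arrays the share was 9.79% (14 of 143, the 10 above included), and among those called lower both ways 8.33% (5 of 60), while 0 of 19 promoters of genes called higher held them. A match is a description of the letters in this window and not a binding site shown here. Below, windows of 30 bases are written 5′ to 3′ in the direction of each gene, with the 8 matching letters in capitals.
Chac1, chr3:126795953-126795982, plus strand: cttctccgccgTTGCATCActcctgctagg
Tars1, chr2:62114811-62114840, minus strand: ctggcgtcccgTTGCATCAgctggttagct
Slc1a4, chr14:98761779-98761808, minus strand: cgcctccagcgTTGCATCAtccagccagca
Trib3, chr3:161275536-161275565, minus strand: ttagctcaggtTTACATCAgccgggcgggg
Slc7a1, chr12:11664447-11664476, plus strand: cggcgcgcggcTGATGAAAccggctcggat
Chac1, Tars1 and Slc1a4 were called lower both ways and hold the same 8 letters, while Trib3 and Slc7a1 were called with all arrays only. Counted from the gene start, the matches begin at -167, -27, -235, -21 and -30, in the order given.

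The largest difference among named genes called both ways lay in Slc26a8, an anion transporter best known from sperm. It read 3.66, 2.6 and 3.25 after IONC and 6.95, 8.1 and 7.52 after IONT, with a naive mean of 2.49. The difference was -4.35 ± 0.3 (adjusted p = 2.71e-09), and -4.07 ± 0.32 (adjusted p = 4.44e-08) without replicate 2. IONT lay 5.03 above naive (adjusted p = 7.65e-12), while after IONC the gene stood 0.68 above naive.

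Cish, the SOCS-family inhibitor of STAT5 signalling, had the next largest difference. It read 5.09, 2.53 and 3.77 after IONC and 7.78, 7.93 and 7.91 after IONT, against 2.3 in naive retinas. The difference was -4.08 ± 0.35 (adjusted p = 1.71e-07), and -3.45 (adjusted p = 7.81e-08) without replicate 2. A second Cish probe set gave -2.77, and its call was lost without replicate 2 (-2.29, adjusted p = 0.0215). Cish was the 1 gene called among 16 of the JAK, STAT and SOCS list. Its relative Socs3 read 7, 2.96 and 6.54 after IONC and 5.34, 5.96 and 5.63 after IONT, with a difference of -0.14 (adjusted p = 0.896) that turned to 1.13 (adjusted p = 0.771) without replicate 2.

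Bbc3, which encodes the cell death protein PUMA, stood higher after IONT than in naive retinas or after IONC. Its values were 6.02, 5.51 and 5.42 after IONC, 6.82, 7.34 and 7.24 after IONT, and 5.66 in the naive mean. The difference of -1.48 ± 0.22 (adjusted p = 0.000501) was -1.41 without replicate 2, and IONT lay 1.47 above naive (adjusted p = 4.61e-05). It was the 1 gene called among 23 caspases and Bcl-2 family members. Bcl2l11, encoding the related death protein BIM, differed by -0.20 (adjusted p = 0.64), and by 0.45 (adjusted p = 0.462) without replicate 2.

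Other genes called lower both ways had different functions. Pspc1, a paraspeckle protein, read 5.22, 4.19 and 4.26 against 6.71, 7.83 and 7.61, a difference of -2.83 (adjusted p = 1.04e-05), or -2.64 without replicate 2. Its brighter probe set gave -0.45 (adjusted p = 0.262) and 0.04 without replicate 2, so the call rests on 1 of its probe sets. Ciita, the master regulator of MHC class II genes, read 3.44, 4.19 and 4.05 against 5.69, 6.04 and 6.31. It was lower by -2.12 (-2.27 without replicate 2), and its naive mean of 7.38 was above both lesions, while its other probe set, near the floor, gave -0.01. Prc1, which organises the spindle midzone in dividing cells, read 6.57, 5.06 and 6.21 against 7.66, 8.4 and 8.35 and differed by -2.19, or -1.75 without replicate 2. Bbs4, a subunit of the BBSome that carries membrane proteins to cilia, differed by -2.76, or -2.07 without replicate 2. The rest of the 15 named by size were Fsd1l (-2.49, and -1.56 without replicate 2), Sgip1 (-2.15 and -1.53), Zbtb44 (-2.01 and -1.31) and Nim1k (-1.89 and -1.39), beside the stress genes above. All of these kept their IONC arrays below their IONT arrays.

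Fewer genes were called higher than lower after IONC, 20 against 147 with all arrays and 45 against 68 without replicate 2. Clcf1, a cytokine of the gp130 family that acts through the CNTF receptor, was the largest of those called both ways. Its 3 IONC arrays read 5.8, 5.89 and 5.59, and its IONT arrays 4.35, 3.61 and 3.51, with a naive mean of 3.26. The difference was 1.94 ± 0.19 (adjusted p = 2.21e-06), and 1.87 (adjusted p = 3.45e-05) without replicate 2, which was the highest of the IONC arrays here.

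Metrn, meteorin, a secreted protein of glia that promotes neurite growth, was also called both ways. It read 6.73, 6.9 and 6.83 after IONC and 5.36, 5.61 and 5.47 after IONT. The naive mean was 6.87, so IONC stood at the naive level (-0.05) and IONT below it (-1.39, adjusted p = 9.42e-07). The difference was 1.34 ± 0.16 (adjusted p = 4.36e-05), and 1.3 without replicate 2. Clcf1 and Metrn were the 2 genes called among 13 of the list of gp130 cytokines, receptors and related factors, whose median was 0.08. Of all genes, 0.141% were called higher.

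Vwf, the clotting glycoprotein of endothelial cells, read 6.95, 6.41 and 7.17 after IONC against 5.98, 5.7 and 5.28 after IONT. It was higher by 1.19 (adjusted p = 0.000988), and by 1.41 without replicate 2. Of 17 endothelial and mural markers it was the 1 called, and 4 had all IONC arrays above all IONT arrays, beside 5.67% of all genes. The median of the list was 0.32, and 0.06 without replicate 2. Its summed linear level was 4976.1, 3031.8 and 6469 in the IONC arrays and 3644 to 4321.8 in the IONT arrays. Cldn5, a tight junction protein of vessels, differed by 0.80 (adjusted p = 0.044), or 0.98 without replicate 2, and Tek, a receptor of endothelium, by 0.88 (adjusted p = 0.0735), or 0.92. The hypoxia response genes had 0 of 21 called, with a median of -0.19 (0.19 without replicate 2). Of the 21, 7 had an unadjusted limma p under 0.05 (5261 of all 14217 genes).

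The other genes called higher both ways had varied functions. Tapbp, which loads peptides onto MHC class I, read 8.69, 7.56 and 8.4 against 7.09, 5.99 and 6.7 (1.62, adjusted p = 0.00691, and 1.95 without replicate 2). Bin2, a membrane-bending protein of blood cells and microglia, read 3.35, 4.29 and 4.81 against 2.54, 2.58 and 2.59 (1.58, adjusted p = 0.00012, and 1.51 without replicate 2), while its other probe set gave 0.79 and 0.07 and was not called. Lyn, a Src-family kinase of myeloid cells, read 3.28, 3.31 and 3.22 against 2.54, 2.54 and 2.65 (0.70, and 0.67 without replicate 2). Tcirg1, a subunit of the proton pump, was at 5.37, 5.26 and 5.17 against 4.59, 4.74 and 4.5 (0.65, and 0.66 without replicate 2), with IONT below the naive mean of 5.18. The remaining genes of the 15 ran from 0.50 to 1.22 (0.48 to 1.35 without replicate 2, with Tnfaip2 going from 1.22 to 0.64) and were Tnfaip2, Rnf125, Frmd8, Adcyap1, Medag, Ifih1, Stx11 and Cyp26b1. Brighter probe sets of Adcyap1 (0.02, and 0.05 without replicate 2) and of Medag (-0.22 and -0.12) were not called. The lower quartile of the array values was 2.39, the level of probe sets with little or no signal, and the IONT values of Lyn, Bin2, Stx11, Medag, Ifih1 and Adcyap1 lay close to it, so that these differences are limited by it.

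**Figure D3:**
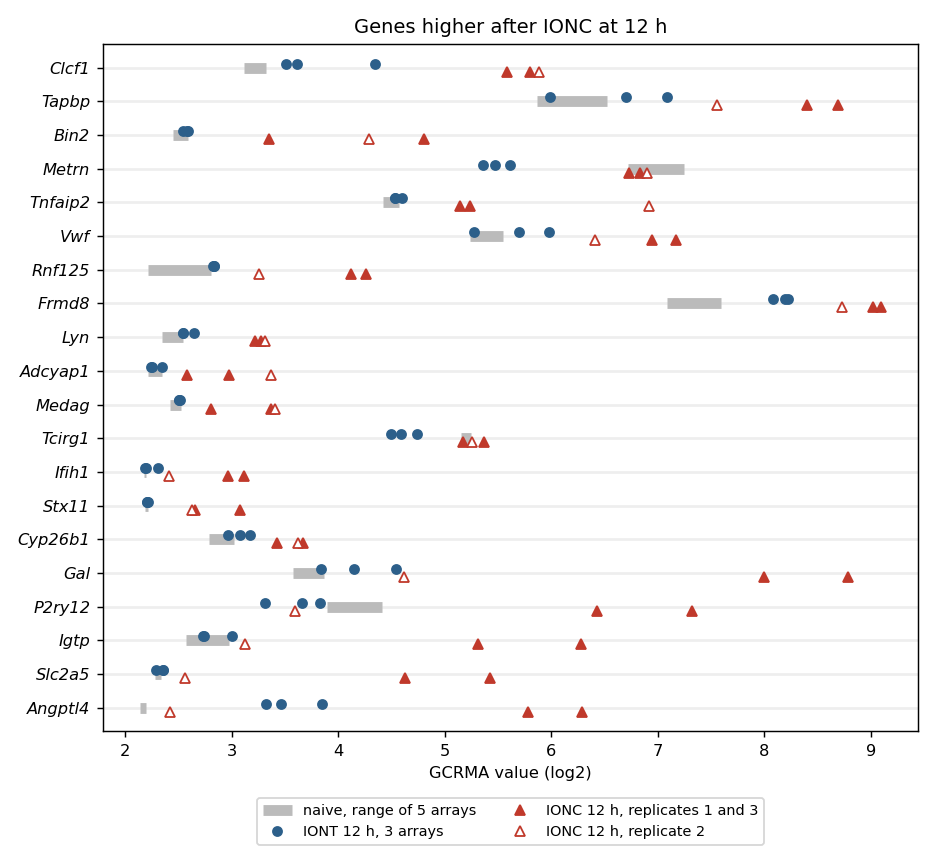
Deposited log2 values (x axis) for the 15 genes called higher after IONC both with and without replicate 2. At the bottom are 5 genes called higher only without it. Each IONC and IONT array is a point, and a bar spans the range of the naive arrays. In Clcf1 and Metrn the 3 IONC arrays lie at 5.59 to 5.89 and at 6.73 to 6.9, while in Gal replicate 2 (4.62) lies near the IONT arrays.

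A further group of genes was called higher only when replicate 2 was left out, and in each of those named here that array was the lowest of the IONC arrays. Gal, galanin, a neuropeptide that injured neurons express, read 8, 4.62 and 8.79 after IONC against 4.54, 3.84 and 4.15 after IONT. Its difference was 2.96 (adjusted p = 0.0428) with all arrays and 4.22 ± 0.72 (adjusted p = 0.00199) without replicate 2, and the IONC arrays lay above the IONT arrays even so. P2ry12, the ADP receptor of resting microglia, read 6.43, 3.6 and 7.32 against 3.83, 3.66 and 3.31. It differed by 2.18 (adjusted p = 0.074), or 3.28 (adjusted p = 0.00303) without replicate 2, and replicate 2 lay within the IONT range. Slc2a5, a fructose carrier found in microglia, differed by 1.87 (adjusted p = 0.0145) or 2.69 (adjusted p = 1.3e-05). Its IONT mean of 2.34 was at the level of little or no signal (2.39). Igtp, an interferon-induced GTPase, differed by 2.08 or 2.96, and Angptl4, a lipase inhibitor, by 1.29 or 2.49. The other Igtp probe set was called neither way (1.44 and 2.61).

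Markers of microglia and macrophages are given beside these genes. Of 17 markers, 6 had all IONC arrays above all IONT arrays, beside 5.67% of all genes. By limma 0 of 17 were called with all arrays, with 9 at an unadjusted p under 0.05 (5261 of all 14217 genes), and 1, Csf1r, was called without replicate 2. Csf1r, the receptor that microglia need to survive, read 7.26, 5.55 and 7.72 against 5.46, 5.43 and 5.5 (1.38, adjusted p = 0.078, and 2.02, adjusted p = 0.00697, without replicate 2). The summed linear level of the 17 was 1000.2, 404.82 and 1138.7 in the IONC arrays, 447.26 to 584.32 in the IONT arrays and 383.08 to 458.48 in naive retinas. The defining markers Itgam (2.47, 3.11 and 2.47), Cd68 (1.78, 1.94 and 1.77) and Mrc1 (2.23, 2.53 and 2.22) were near the floor on the IONC arrays. The part of microglia in these differences was not tested. Of the other immune lists, 0 of 10 complement genes (median 0.37, and 1.06 without replicate 2), 0 of 19 interferon response genes (0.24 and 0.82) and 0 of 20 chemokines and cytokines (0.13 and 0.06) were called with all arrays, and 3, 2 and 7 of them had an unadjusted limma p under 0.05.

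**Figure D4:**
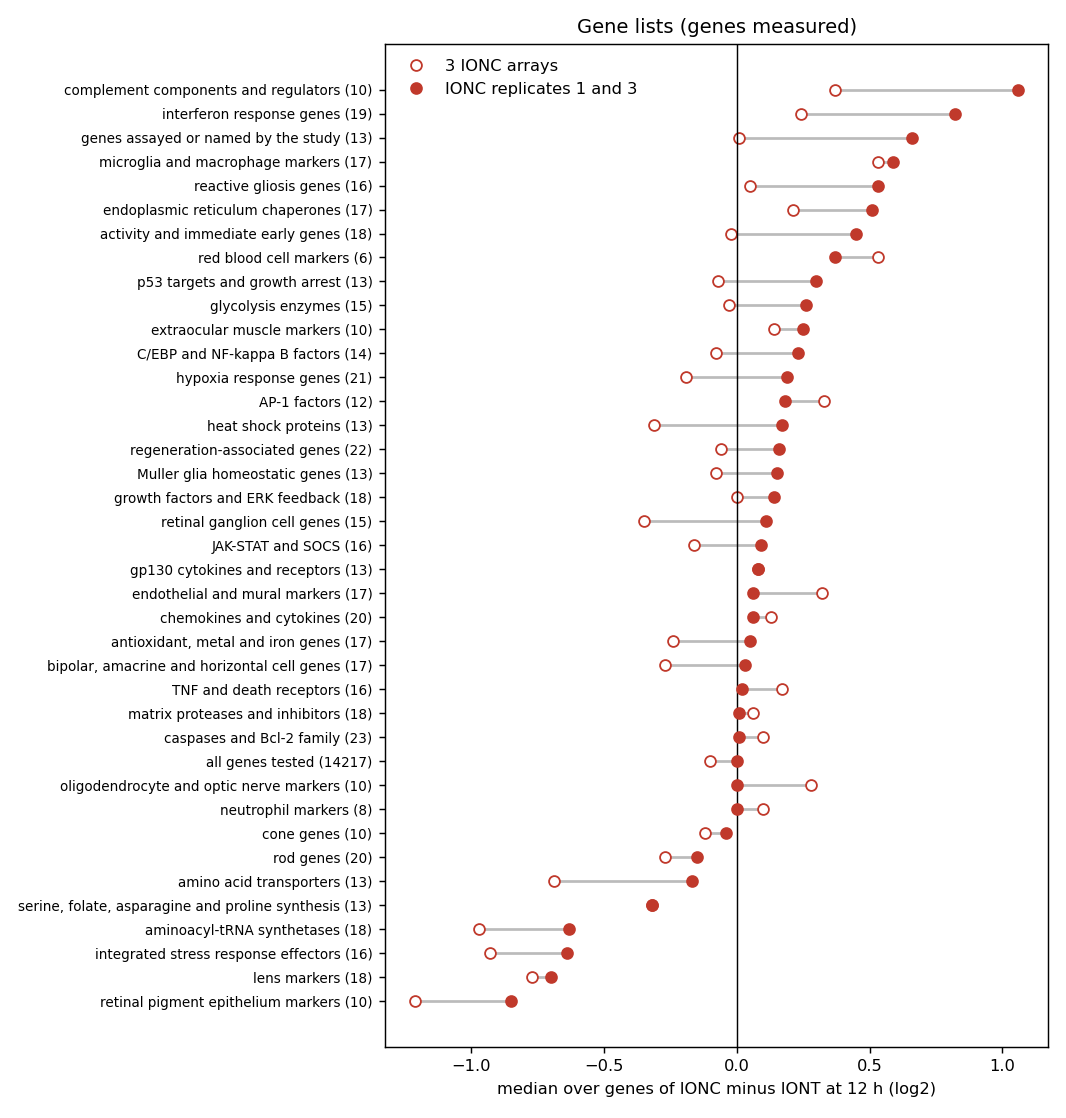
Median log2 difference between IONC and IONT at 12 h (x axis) for each of 38 gene lists and for all genes (rows), with all 3 IONC arrays (open circles) and with replicates 1 and 3 (filled circles). The 4 stress and amino acid lists lie left of 0 either way, at -0.97 to -0.32 with all arrays, and the chaperone list lies right of 0.

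Of 15 retinal ganglion cell genes 0 passed and 2 had an unadjusted limma p under 0.05 (5261 of all 14217 genes). Their median was -0.35, and 0.11 without replicate 2. Among 22 genes linked to axon regeneration, 0 were called with all arrays and 1, Gal, without replicate 2. Sprr1a, a small proline-rich protein of regenerating neurons, read 5.71, 2.92 and 2.57 after IONC against 4.49, 9.06 and 6.41 after IONT, with groups that overlapped (-2.92, adjusted p = 0.119, and -2.51 without replicate 2).

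Rod genes had a median difference of -0.27, and of -0.15 without replicate 2. Among 20 of them, 1 was called, Cnga1, a subunit of the rod channel, at 12.49, 12.12 and 12.44 against 12.96, 12.85 and 12.79 (-0.52, adjusted p = 0.00598), and 9 of the 20 had all IONC arrays below, beside 10.4% of all genes. The call was lost without replicate 2 (-0.40, adjusted p = 0.043). Opn1mw, the green cone opsin, was the 1 of 10 cone genes called, at 6.81, 5.83 and 7.09 against 8.57, 8.47 and 8.11 (-1.81, adjusted p = 0.0042), and was not called without replicate 2 (-1.44, adjusted p = 0.0409).

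The values of markers of tissue next to the retina were as follows. Of 18 lens genes, 0 were called and 1 had an unadjusted limma p under 0.05, while all 18 differences were negative and 13 (72.2%) had the IONC arrays below the IONT arrays, beside 10.4% of all genes, with a median of -0.77 (-0.70 without replicate 2). The summed level of the lens list was 93963, 78701 and 97130 in the IONC arrays and 115620 to 133990 in the IONT arrays, beside a naive span of 101310 to 193900. Of 10 markers of the pigment epithelium, 0 were called and 5 had an unadjusted limma p under 0.05 (5261 of all 14217 genes). Of the 10, 4 lay below (10.4% of all genes), with a median of -1.21 (-0.85 without replicate 2). Rpe65, the isomerase of the visual cycle, differed by -2.4 (adjusted p = 0.018), or -2.06 without replicate 2. Red blood cell genes stood out in IONC replicate 1, where Hbb read 12.96 against 10.8 to 11.26 on the other 5 arrays. The part of these tissues in the differences above was not tested.

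A short list of genes that the study assayed or discussed was also examined at 12 h. Of its 13 measured members, 0 passed with all arrays or without replicate 2. An unadjusted limma p under 0.05 was found for 2 and 6 of them (5261 and 1795 of all 14217 genes). Fos, an immediate early gene, read 11.04, 7.05 and 10.58 after IONC against 10.08, 9.58 and 9.88 after IONT, with a naive mean of 7.32. Ccl2, a chemokine that draws monocytes, read 10.37, 4.32 and 10.07 against 9.28, 8.63 and 8.64, and Tnfrsf12a, the TWEAK receptor, 8.43, 4.24 and 7.5 against 7.2, 6.91 and 6.9. In these 3 genes replicate 2 was the lowest of the 6 arrays and the other IONC arrays were the highest. Without replicate 2 their differences were 0.96, 1.37 and 0.96, and none was called.

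For part of the genes the difference between the lesions changed from 12 h to 48 h. At 48 h, 32 probe sets (0.103%) were called between IONC and IONT, 24 higher (0.0773%) and 8 lower (0.0258%). The change of the difference from 12 h to 48 h was itself called for 91 probe sets (0.293%), 13 higher (0.0419%) and 78 lower (0.251%) at 12 h than at 48 h, and for 86 (0.277%) without replicate 2. Of the 110 probe sets called lower both ways, 32 were called in this test, and their median difference was -0.08 at 48 h. Slc26a8 went from -4.35 to 0.09 (adjusted p of the change 1.68e-06). Clcf1 went from 1.94 to -0.46 (adjusted p of the change 2.81e-05), and Metrn from 1.34 to -0.17. Ciita read -2.12 at 12 h and 1.60 at 48 h, and Prc1 -2.19 and 1.01, and the 48 h differences were not called (adjusted p = 0.0882 and 0.225). Cish was also lower at 48 h (-2.71, adjusted p = 0.000302), and its change of -1.37 from 12 h to 48 h was not called. Between these times, at 24 h, its difference was 0.15 (adjusted p = 0.874). The 24 h difference was -1.88 for Slc26a8 (adjusted p = 0.000527) and 0.5 for Clcf1 (adjusted p = 0.142). For Metrn it was -1.1 (adjusted p = 0.000255), opposite in direction to 12 h. The IONT arrays of 24 h read 3.65 and 3.22 in the actin measure, against 1.64 to 1.92 on the IONC arrays of 24 h.

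**Figure D5:**
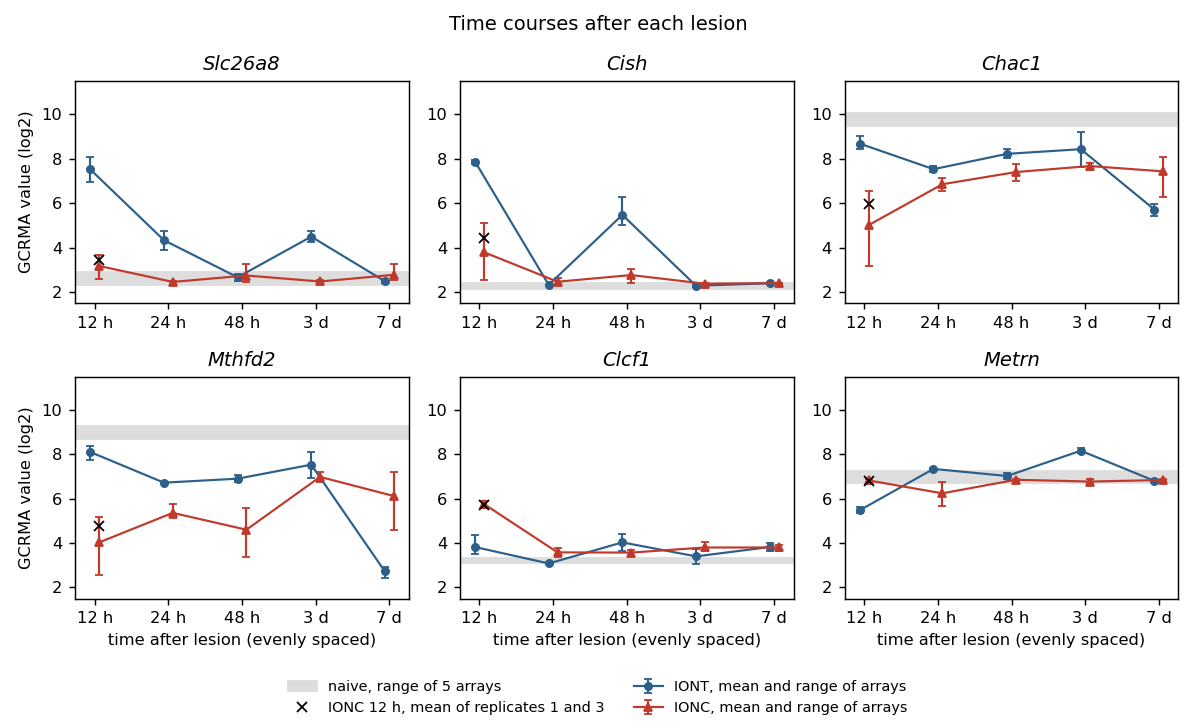
Mean log2 value and range over arrays (y axis) from 12 h to 7 d, with times evenly spaced (x axis), after IONC and IONT for Slc26a8, Cish, Chac1, Mthfd2, Clcf1 and Metrn, with the naive level as reference and a cross for the IONC mean of replicates 1 and 3 at 12 h. Slc26a8 differs by -4.35 at 12 h and by 0.09 at 48 h, whereas Cish differs by -4.08 and by -2.71.

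None of the stress and amino acid genes named above was called in the test of change. With all arrays their differences were smaller at 48 h than at 12 h. Without replicate 2 this did not hold for Cebpg (-0.80 at 12 h and -0.95 at 48 h), Atf3 (-2.03 and -2.05) or Trib3 (-1.59 at both). Nor did it hold for the Eprs1 probe set at -1.11 at 12 h, whose 48 h means were 7.44 after IONC and 8.68 after IONT. Chac1 stood at -0.82 at 48 h, Sesn2 at -0.76, Atf4 at -0.41 and Mthfd2 at -2.3. The medians at 48 h were -0.46 for the effectors of the stress response and -0.35 for the synthetases. A loss of the difference by 48 h was therefore not shown for these genes. At 7 d, where 4 probe sets (0.0129%) were called higher after IONC, Mthfd2 was one of them, at 3.4 (adjusted p = 0.00913), opposite in direction to 12 h.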

How the data were processed

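Retinal RNA pools were hybridised to Affymetrix RAE230.2 rat arrays. The authors normalised the scanner files with GCRMA and deposited log2 values for 31099 probe sets, which were used as given. No GCRMA version or annotation build was stated in the sources, and GCRMA values carry no detection calls. After 57 control probe sets were left out, 31042 were tested with limma 3.58.1 (R 4.3.3, statmod 1.5.0). The fit held all 35 arrays in 12 groups, the contrast was IONC 12 h minus IONT 12 h, and p-values were Benjamini-Hochberg adjusted over all probe sets. It was repeated without IONC 12 h replicate 2. The comparison of later times and of each lesion with naive used the same fit. 1 unit of log2 is a 2-fold difference.

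Of the probe sets, 20826 had 1 gene symbol, 436 several and 9780 none. They covered 14217 genes, 4525 with more than 1 probe set. A gene in a list was represented by its brightest probe set over all arrays, and a gene named by size by the probe set with the largest difference. Named were the 15 largest differences each way called with and without replicate 2 with arrays that did not overlap, the 5 largest each way called under 1 of the 2 only, the called members of the lists or otherwise up to 3 of their largest, and the genes the study assayed. Genes mentioned beside these were chosen after their values were seen. The members and the lists were chosen with earlier results of these data known. Some listed genes are not reported here.

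The number of arrays limits the precision. Fits were tested on simulated data. Alternatives were other normalisations, filters and thresholds, array weights (gene by gene method), a replicate block, the 6 arrays alone and leaving out each array.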

Additional observations from a re-analysis of the deposited data

Results flagged for a closer look

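In naive retinas, 1 of the 5 arrays was marked as apart from the other 4 in 6 of the 88 named probe sets tested, where chance alone marks about 1 in 20. The array apart read 7.25 for Metrn (the others 6.72 to 6.82), 2.22 for Stx11 (2.19 to 2.2), 5.25 for Tcirg1 (5.15 to 5.17), 3.9 for P2ry12 (4.36 to 4.41), 2.14 for Cish (2.32 to 2.38) and 2.35 for Adcyap1 (2.22 to 2.25). Some of these gaps are small, and the values of Stx11, Cish and Adcyap1 lay under the floor of 2.39. The naive arrays do not enter the difference between the lesions, but they do enter the spread from which its p-values were taken.

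The difference between IONC and IONT changed from 12 h to 48 h for 91 probe sets by limma's test of that change. Of the named genes, 11 passed it with and without IONC 12 h replicate 2. As 12 h minus 48 h, the change was -4.44 for Slc26a8, -3.72 for Ciita, -3.2 for Prc1 and -2.9 for Nim1k. It was 2.4 for Clcf1, 1.57 for Vwf, 1.5 for Metrn, 1.15 for Frmd8, 0.68 for Tcirg1, 0.64 for Lyn and 0.58 for Stx11.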

How the results depend on the processing

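Against 290 called probe sets, leaving out 1 array gave 65 to 1460 calls. Higher calls ran from 11 to 216, lower calls from 52 to 1244, and called genes of the stress and amino acid lists from 3 to 27. The 6 arrays alone, the 5 without IONC replicate 2 and the 6 with a replicate block gave 0 calls of any kind, with 1084, 3646 and 788 probe sets at an unadjusted limma p under 0.05. Array weights gave 1150 calls (458 higher, 692 lower, 60.2% lower), and 1115 (449 and 666, 59.7% lower) without IONC replicate 2. Quantile normalisation gave 184 (142 lower, 77.2% of calls), and 181 (68 higher, 113 lower, 62.4%, 10 genes of the stress lists) without that replicate. Both fits without it were chosen after seeing the data. An adjusted p under 0.05 gave 930 calls (125 higher, 805 lower). Higher calls were 16 with arrays centred on their medians, 59 with cyclic loess (76.6% of calls lower) and 16 with a filter on low values. The cause was not tested. None of the 88 named probe sets changed sign while called under these alternatives. Fos, Ccl2, Tnfrsf12a, Egr1, Litaf, Lcn2, Tradd and Pgam1 changed sign under some of them without being called there. Same-numbered arrays deviated together at correlations of 0.0011 to 0.036, so the numbers were not taken as pairs, and a replicate block over all arrays gave 343 calls with 18 genes of the stress lists. Near the floor of 2.39, small differences are limited by the arrays' background.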

Other observations

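Several genes of cilia and of photoreceptor outer segments, seen only once the values were known and given with no test of the group, were called lower after IONC both ways. Bbs5, a BBSome subunit, differed by -1.34 (-0.75 without IONC replicate 2), Ift74, of intraflagellar transport, by -1.04 (-1.05), Prcd, a disc protein of rods, by -1.04 (-0.98), and Rp1l1, a protein of the photoreceptor axoneme, by -0.84 (-0.67). Ift74 read 8, 8.01 and 7.97 after IONC against 8.69, 9.19 and 9.24 after IONT. Crebrf, a regulator of the unfolded protein response, had 2 probe sets called lower both ways, at -1.81 and -1.06 (-1.19 and -0.70 without IONC replicate 2). Its IONT values of 9.71, 10.11 and 9.93 lay above a naive mean of 8.56. Mef2c, a transcription factor of neurons, differed by -1.28 (-0.94), and Ppargc1a, a regulator of mitochondrial genes, by -1.08 (-1.01).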
